A study of Mus musculus with 10 samples.

Results

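The lymphoma and the Notch-labelled cells of this mouse study are its 2 clonal B lineage populations, in that nearly all heavy chain and nearly all kappa variable (V) segment counts of each come from a single segment. The 4 libraries described here, 2 of each population, were picked by their titles out of 10, and their counts were summed over transcripts for each of 30205 genes. All libraries hold total RNA of FACS-sorted B lineage cells of C57BL/6 mice. The question behind the study is whether NF-kB and Notch signals switched on in the same B cell transform it.

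The lymphoma libraries came from lymphoma tissue of mice with the alleles Rosa-NIKdeltaT3flSTOP and Rosa-Notch2ICN and with CD19Cre. The Notch-labelled libraries came from lymph node, carry Rosa-Notch2ICN and CD19Cre, and are labelled as pre-malignant marginal zone B cells, although their files bear the letters used elsewhere for precursors. The other 6 libraries are of lymph node cells whose label is marginal zone precursor B cell, 2 each of doubly activated (both Rosa alleles with CD19Cre), NF-kB-activated (Rosa-NIKdeltaT3flSTOP with CD19Cre) and wild-type control mice. CD19Cre is a Cre recombinase made from a B cell gene, so it switches on a Rosa allele in B lineage cells. NIK is the kinase encoded by Map3k14, which drives the alternative NF-kB pathway, and Notch2ICN is the intracellular, signalling part of the receptor Notch2. No ages are given, and whether the 2 libraries of a group stem from separate animals is not stated. Since the 2 libraries of each clonal group carry the same V pair, each group is treated as 1 clone measured in 2 libraries. The p-values rest on the spread between libraries of a group, pooled over all 5 groups and 10 libraries. They do not measure the spread between tumours, or between mice that carry such a clone.

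Mature B cells each carry 1 rearranged heavy and 1 light chain, and a polyclonal population therefore shows many V segments. Marginal zone B cells depend on Notch2, which is cut after ligand binding so that its intracellular part enters the nucleus and switches on targets such as Heyl and Dtx1. Plasma cells, the end stage of the lineage, replace B cell genes with a secretory programme under Xbp1. Dntt, which adds bases at V(D)J joints, and Sox4, a transcription factor of lymphoid progenitors, are normally genes of precursors.

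Depth was 23102081 and 21425408 estimated counts in lymphoma libraries, 18864545 and 18802121 in Notch-labelled libraries, and 16380889 to 19267466 in the other 6. Levels are given as CPM (counts scaled to library size by TMM), and differences are log2 fold changes ± standard error (SE) with adjusted p from edgeR's quasi-likelihood test, Benjamini-Hochberg adjusted over the 15583 genes tested. A gene is called at adjusted p under 0.05. The 2 clonal groups differ in the NIK allele, in tissue, in labelled cell type and in clone, and these cannot be told apart. They also differ in the Y-linked gene Ddx3y, at 144 and 154 CPM in lymphoma and 2.40 and 1.88 CPM in Notch-labelled libraries, while the other 6 libraries held 0.653 to 187 CPM with one of the 2 control libraries at the low end. Genes of stroma and endothelium summed to 83.4 and 80.9 CPM in lymphoma, 1132 and 1459 CPM in Notch-labelled and 213.6 to 333 CPM in the other libraries, a difference taken up again beside the genes it moves with.

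The V segments of the 2 clones were different ones, drawn from the same loci. In the lymphoma libraries Ighv1-11 held 92.3% (95% Wilson interval 92.1% to 92.5%) and 92.1% (91.9% to 92.3%) of the heavy chain V counts, and Igkv17-121 held 90.8% and 91.7% of the kappa V counts. In the Notch-labelled libraries Ighv1-55 held 92.8% and 93.8%, and Igkv12-41 held 92.7% and 94.1%. These shares describe the groups and are what set them apart, so they are not tested. Ighv1-11 had 0 of 6189 and 0 of 6175 heavy chain V counts in the Notch-labelled libraries, which allows a share of up to 0.0485% and 0.0486% by a floor of 3 counts. Their sequences are shown because they tell the 2 receptors apart. Each is the last 290 bases of the germline V exon (GRCm38, coding strand, not the clone's own rearranged sequence), with capitals where the heavy pair or the light pair differ or are gapped. The exons lie at chr12:114612243-114612532 (minus strand), chr12:115208095-115208384 (minus), chr6:68037029-68037318 (plus) and chr6:69858420-69858709 (minus).
Ighv1-11: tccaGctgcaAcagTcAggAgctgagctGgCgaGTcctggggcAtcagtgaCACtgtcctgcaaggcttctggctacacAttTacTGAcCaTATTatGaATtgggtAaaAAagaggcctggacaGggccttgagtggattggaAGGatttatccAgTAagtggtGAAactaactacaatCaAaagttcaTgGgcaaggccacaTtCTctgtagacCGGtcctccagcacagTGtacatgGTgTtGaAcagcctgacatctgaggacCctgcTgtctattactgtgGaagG
Ighv1-55: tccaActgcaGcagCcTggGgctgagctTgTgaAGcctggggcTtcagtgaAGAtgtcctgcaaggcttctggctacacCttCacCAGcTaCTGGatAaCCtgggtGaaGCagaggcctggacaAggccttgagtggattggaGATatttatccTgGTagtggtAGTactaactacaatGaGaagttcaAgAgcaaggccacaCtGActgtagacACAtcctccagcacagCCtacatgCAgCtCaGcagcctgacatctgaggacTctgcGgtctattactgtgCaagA
Igkv17-121: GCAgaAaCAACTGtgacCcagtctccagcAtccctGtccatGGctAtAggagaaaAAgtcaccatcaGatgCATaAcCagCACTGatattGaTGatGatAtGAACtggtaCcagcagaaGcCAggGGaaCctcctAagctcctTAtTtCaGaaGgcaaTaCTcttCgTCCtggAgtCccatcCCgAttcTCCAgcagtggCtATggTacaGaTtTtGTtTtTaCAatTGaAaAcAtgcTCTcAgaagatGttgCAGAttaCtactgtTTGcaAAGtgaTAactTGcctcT
Igkv12-41: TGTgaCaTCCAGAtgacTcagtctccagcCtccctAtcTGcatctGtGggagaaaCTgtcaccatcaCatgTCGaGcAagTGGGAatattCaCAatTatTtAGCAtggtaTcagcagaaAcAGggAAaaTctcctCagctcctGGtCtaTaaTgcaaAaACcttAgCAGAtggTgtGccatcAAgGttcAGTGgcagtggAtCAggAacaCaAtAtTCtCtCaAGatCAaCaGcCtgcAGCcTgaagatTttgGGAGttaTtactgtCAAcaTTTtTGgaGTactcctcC

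The heavy chain segments, members of 1 family, were identical at 230 of 290 positions (79.3%), and the light chain segments at 182 of 295 aligned columns (61.7%). Near-identical segments of a family can share reads. Summed over the whole family by name (Ighv1), heavy chain shares were 94.8% and 94.6% in lymphoma and 97.1% and 97.3% in Notch-labelled libraries. The same family held 53.8% to 60.1% in the other 6, and the sum covers more than near-identical segments. The effective number of heavy chain segments (the inverse of the summed squared shares) was 1.17 and 1.18 in lymphoma libraries, 1.16 and 1.14 in Notch-labelled libraries and 42.4 to 52.9 in the other 6. What was left over differed. In lymphoma the segment next in rank, Ighv8-12, held 2.79% and 2.87% of heavy chain V counts and Igkv6-32 held 5.28% and 4.83% of kappa V counts, whereas in the Notch-labelled libraries Ighv1-84 held 1.28% and 0.745%, and no further kappa segment passed 0.805%. Whether the smaller lymphoma segments belong to the same cells or to others was not tested.

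**Figure D1:**
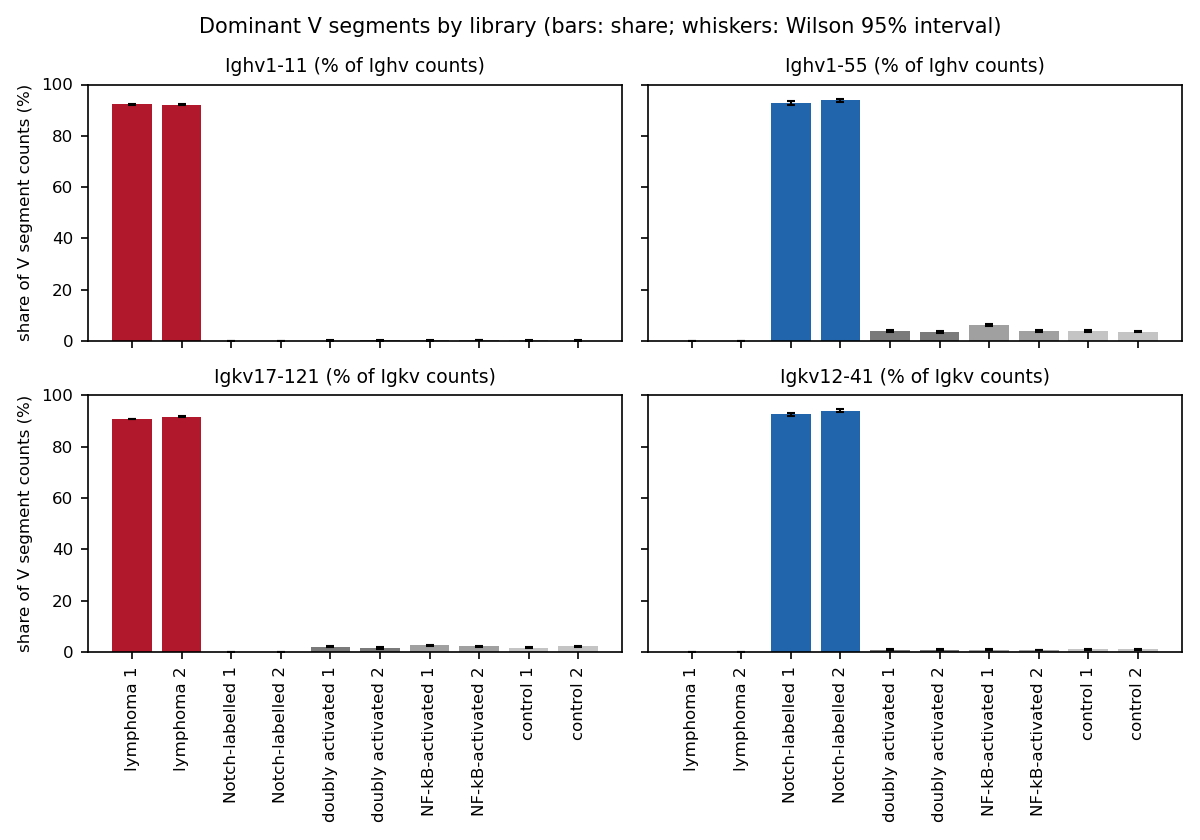
Share of heavy chain (Ighv) and kappa (Igkv) V segment counts, in percent, taken by each segment in every library, with the lymphoma and Notch-labelled libraries first. A single segment fills 90.8% to 94.1% of its class in the 4 clonal libraries, with a different pair in each group, and no segment, plotted or not, held more than 7.29% in the other 6.

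The 2 clones used their receptor genes at very different levels. Heavy chain V counts were 0.302% and 0.321% of all gene counts in lymphoma, 0.0332% in both Notch-labelled libraries and 0.0532% to 0.0647% in the others. Ighm, the heavy chain constant gene of IgM, had 24364 and 22794 CPM in lymphoma against 4631 and 4306 CPM in Notch-labelled libraries, a log2 fold change of 2.40 ± 0.09 (adjusted p = 1.69e-09), and 3986 to 5504 CPM elsewhere. Igkc, the kappa constant gene, had 6016 and 5324 CPM in lymphoma and 463 and 479 CPM in Notch-labelled libraries (3.59 ± 0.11, adjusted p = 2.91e-10). Lymphoma stood far above every other library in both genes, while the Notch-labelled libraries lay inside the others for Ighm and below them for Igkc (665 to 769.7 CPM). Lambda chain counts were also present. Iglc2, a lambda constant gene that can share reads with near-identical copies, had 545 and 478 CPM in lymphoma, 279 and 250.2 CPM in Notch-labelled and 411 to 626 CPM in other libraries. Igkc thus held 91.7% and 91.8% of the summed Igkc and Iglc2 counts in lymphoma, but 62.4% and 65.7% in Notch-labelled libraries. The other 6 held 51.5% to 64.8%. These shares are of counts not scaled for transcript length, so they are not shares of light chain molecules. In length-scaled TPM, Igkc had 45117 and 43485 in lymphoma, 4552 and 4776 in Notch-labelled and 5701 to 7335 in other libraries. Iglc2 had 1377 and 1317, 924 and 841, and 1314 to 1999 TPM. The 3 lambda V segments had 1843 and 1720 counts in lymphoma and 108 and 141 in Notch-labelled libraries, beside 129205 and 120820 and 7946 and 7490 kappa V counts. Whether the lambda counts come from the clonal cells or from others was not tested.

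The form of Ighm parted as well. Transcripts assigned to the secreted form held 74.9% (95% Wilson interval 74.8% to 75.0%) and 76.6% (76.5% to 76.7%) of Ighm counts in lymphoma, against 23.8% and 23.6% in Notch-labelled libraries and 13.6% to 24.1% in the others. Secreted IgM is the product of plasma cells and membrane IgM the receptor of B cells; the 2 forms share most of their sequence, so the split rests on kallisto's assignment. Both clones had little Ighd, which is spliced from the same primary transcript as Ighm in mature naive B cells, with 43.1 and 43.8 CPM in lymphoma, 72.8 and 66.7 CPM in Notch-labelled and 232 to 1420.3 CPM in other libraries. Per 100 Ighm counts that was 0.177 and 0.192 in lymphoma, 1.57 and 1.55 in Notch-labelled and 4.21 to 35.4 in other libraries, and both clonal groups against the other 3 had a log2 fold change of -3.70 ± 0.25 (adjusted p = 2.31e-05). Switched isotypes held a minor share. Ighg3 held 2.41% and 2.54% of heavy chain constant counts in lymphoma, 7.44% and 7.65% in Notch-labelled and 0.280% to 1.33% in other libraries. Its level was 605 and 598 CPM in lymphoma, 396 and 380 CPM in Notch-labelled and 14.5 to 77.8 CPM in other libraries, so it was raised in both clones. Ighg2b held 0.282% and 0.296% in lymphoma, 3.78% and 3.99% in Notch-labelled and 0.166% to 1.37% in other libraries.

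Set against each other, the 2 populations parted in most of the transcriptome. Of 15583 genes, 4835 (31.0%) were higher and 5011 (32.2%) lower in lymphoma than in Notch-labelled cells, 63.2% in either direction, and 2254 higher and 2887 lower genes were also more than 2-fold apart. Both lymphoma libraries lay above both Notch-labelled libraries in 41.3% of genes and below them in 42.7%. Scaling by library size alone, which moved the median of all genes to -0.18 on the log2 scale from -0.01, gave 3836 higher and 6047 lower genes. The shares of 31.0% and 32.2% are the background of every list count between the clones. Set against the other 3 groups together, the mean of the 2 clonal groups was higher in 5213 genes (33.5%) and lower in 4901 (31.5%), 64.9% in all. All 4 clonal libraries lay above all 6 others in 2489 genes (16.0%) and below all 6 in 2284 (14.7%), of which 1828 and 1836 had group means of the 2 clones under 2-fold apart. In 646 genes (4.15%) lymphoma lay above the 6 others and the Notch-labelled libraries below them, and in 606 (3.89%) the reverse.

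The markers Xbp1, Dntt and Sox4 separated the 2 populations. Xbp1 (ENSMUSG00000020484, chromosome 11), the transcription factor of the secretory programme, had 669 and 663 CPM in lymphoma against 121 and 116 CPM in Notch-labelled libraries, a log2 fold change of 2.49 ± 0.08 (adjusted p = 6.15e-10), and 70.0 to 94.0 CPM in the others. Both clones were thus above the 6 other libraries and lymphoma far more so. Dntt (ENSMUSG00000025014, chromosome 19) had 0 and 0.293 CPM in lymphoma and 34.5 and 44.0 CPM in Notch-labelled libraries (-8.03 ± 0.64, adjusted p = 7.96e-06), with 0 to 0.218 CPM elsewhere. All Dntt counts of lymphoma were in library 2, without which the log2 fold change was -12.51, a fitted value that rests on 0 counts and is no bound. Sox4 (ENSMUSG00000076431, chromosome 13) had 1.43 and 0.880 CPM in lymphoma and 893 and 837 CPM in Notch-labelled libraries (-9.53 ± 0.46, adjusted p = 5.07e-06). The 6 other libraries held 2.72 to 9.19 CPM of Sox4, so that the Notch-labelled libraries stood far above them and lymphoma below all of them.

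Genes of V(D)J recombination and early B cells did not move as a block. Of 17 tested, 6 were higher and 8 lower in lymphoma, with a median log2 fold change of -0.49 against -0.01 over all genes. Vpreb3, a partner of the precursor receptor chains, went the other way from Dntt and Sox4, with 252 and 214 CPM in lymphoma, 17.5 and 16.8 CPM in Notch-labelled (3.76 ± 0.13) and 10.01 to 33.2 CPM in other libraries. Rag1, a recombinase subunit outside the naming rule and given for its role, had 0 counts in lymphoma and 73 in the Notch-labelled libraries, at least 25.5-fold lower in lymphoma by the floor of 3 counts over the group. Cd93, a surface marker of immature B cells, was at 1.48 and 1.51 CPM in lymphoma and 8.75 and 13.8 CPM in Notch-labelled libraries, and Lef1, a transcription factor of precursors, at 13.7 and 14.2 and 1.60 and 1.88 CPM. Like the stroma and endothelium sum (1132 and 1459 CPM), Cd93 and Dntt were higher in Notch-labelled library 2 than in library 1, unlike Sox4. The median ratio of library 2 to library 1 was 0.961 over 11 genes of this list. The part of other cells in Cd93 and Dntt was not tested. Both clones were above the others in Myb, a transcription factor of progenitors (1.91 ± 0.09 against the other 3 groups, but 0.24 and not called against doubly activated cells alone), and in Cd24a, a surface protein of immature B cells (1.17 ± 0.09).

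**Figure D2:**
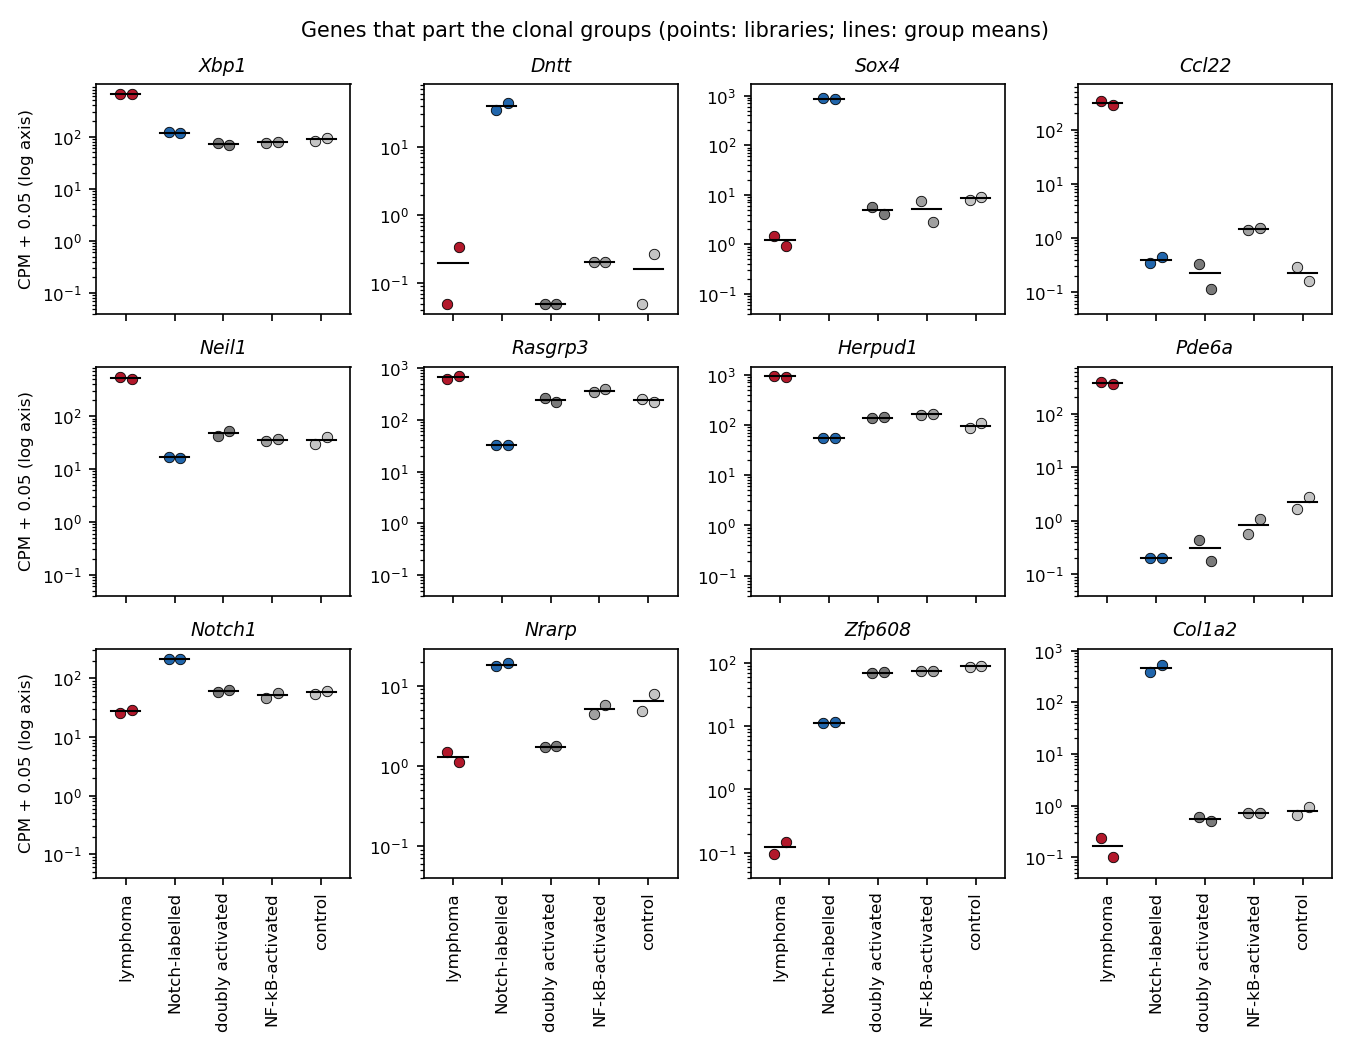
CPM + 0.05 on a log axis for 12 genes in each of the 10 libraries, 1 point a library and a line at each group's mean, with the groups lymphoma, Notch-labelled, doubly activated, NF-kB-activated and control from left to right. Xbp1, Ccl22, Neil1, Rasgrp3, Herpud1 and Pde6a are higher in lymphoma than in Notch-labelled libraries, and Dntt, Sox4, Notch1, Nrarp, Zfp608 and Col1a2 are lower.

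The largest rises in lymphoma were mostly genes with few counts or none in the Notch-labelled libraries. Pde6a, the catalytic subunit of the retinal rod phosphodiesterase, had 385 and 351 CPM in lymphoma against 0.150 and 0.148 CPM in Notch-labelled libraries (11.21 ± 0.27, adjusted p = 2.65e-10) and 0.131 to 2.77 CPM in the others. Ccl22, a chemokine that attracts regulatory T cells through Ccr4, had 340.3 and 286 CPM in lymphoma and 0.300 and 0.396 CPM in Notch-labelled libraries (9.79 ± 0.20, adjusted p = 1.34e-11). With 0.0654 to 1.47 CPM in the other libraries it was high in the lymphoma libraries alone of the 10, and the log2 fold change against doubly activated cells, which carry the same alleles, was 10.71 ± 0.22. Tnfsf15, a cytokine of the TNF family, had 39.6 and 49.0 CPM in lymphoma and 0.04998 and 0.198 CPM in Notch-labelled libraries. Nme9, Pdzrn4, Pou3f4, Inhbe and Hoxb5 had no counts in the Notch-labelled libraries and were at least 134-, 91.5-, 90.8-, 89.6- and 79.4-fold higher in lymphoma. With 1 count in the Notch-labelled libraries, Adm was 276-fold (exact 95% interval 49.2 to 10951) and Dmrt2 258-fold (45.9 to 10233) higher in lymphoma. The call of Adm (adjusted p = 0.0499) was fragile. It was lost whenever 1 clonal, doubly activated or control library was left out, and adjusted p was 0.0507 with DESeq2 size factors, 0.0534 by library size alone, 0.061 with a replicate block, 0.075 with no low-count filter and 0.389 by limma-voom. Pou3f4, Hoxb5 and Dmrt2 encode transcription factors of embryonic patterning and Inhbe an activin subunit. Levels of these 7 were low, at most 10.7 CPM in a lymphoma library, and Adm (adrenomedullin) reached 43.2 CPM in one of the 6 other libraries.

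The 10 largest falls in lymphoma were genes with no lymphoma count, 7 of them of matrix, collagen folding or caveolae. Cd63, a tetraspanin of late endosomes, had 0 and 0 CPM in lymphoma and 95.2 and 132 CPM in Notch-labelled libraries, at least 1595-fold lower in lymphoma. Ccn1 (matricellular protein), Col4a1 and Col5a2 (collagens), Serpinh1 (collagen chaperone), Cavin1 (caveolae), Mmp2 (gelatinase) and Efemp1 (matrix protein) were likewise at 0 in lymphoma and at least 1352-, 1018-, 499.6-, 933-, 803-, 742- and 571-fold lower there. Rps13-ps2, at least 1384-fold lower, is a pseudogene that shares sequence with its parent gene, so its counts are uncertain. Of 12 stroma and endothelium genes tested, 10 were lower in lymphoma, with a median log2 fold change of -7.46, and Col1a2 had 0.185 and 0.0489 CPM in lymphoma, 391 and 534 CPM in Notch-labelled and 0.458 to 0.870 CPM in the other libraries. These genes moved together between the 2 Notch-labelled libraries, with 1.21 to 1.40 times the CPM in library 2 for the 9 top falls just named and a median of 1.30 over 10 stroma genes, against 0.995 over 10508 genes. The summed level of the stroma and endothelium genes thus moves with these falls, and the part of other cells in the sorted samples was not tested. In bulk RNA, more cells of a type and more RNA per cell cannot be told apart. N4bp2, at 40.5 and 36.2 CPM in Notch-labelled libraries and 0 in lymphoma, was the top fall that did not follow that ratio, at 0.894.

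The secretory programme was higher in lymphoma, and part of it was raised in both clones. Of 19 plasma cell genes tested, 15 were higher and 1 lower in lymphoma than in Notch-labelled cells, and 14 were higher and 2 lower in both clones together than in the other groups. All 4 clonal libraries lay above all 6 others in 5 of the 19 (background 16.0%). Of 25 genes of protein folding and secretion in the endoplasmic reticulum (ER), 23 were higher and 0 lower in lymphoma by edgeR (also 0 at an unadjusted p under 0.05, by DESeq2 and by limma-voom, but 1 by library size alone), with a median log2 fold change of 1.26 against -0.01 over all genes, and 24 were higher in both clones together, of which 16 had all 4 clonal libraries above all 6 others (background 16.0%). Herpud1, which takes part in ER-associated degradation, parted most among the named ones, with 944 and 913 CPM in lymphoma, 53.9 and 54.0 CPM in Notch-labelled (4.11 ± 0.11, adjusted p = 1.81e-10) and 85.3 to 166 CPM in other libraries. Notch-labelled cells were thus below every other library in Herpud1. Ern1, the sensor that splices Xbp1 mRNA, had 207 and 241 CPM in lymphoma, 30.1 and 34.1 CPM in Notch-labelled (2.80 ± 0.11) and 17.1 to 22.3 CPM in other libraries. The antibody-secretion genes Mzb1 (1066 and 968 CPM in lymphoma and 259 and 242 CPM in Notch-labelled libraries) and Ell2 (162 and 186 and 31.6 and 31.9 CPM) followed it. Both clones raised Derl3, a degradation channel subunit, with 228 and 226 CPM in lymphoma and 51.1 and 48.6 CPM in Notch-labelled libraries over 5.17 to 9.84 CPM in the others (3.88 ± 0.09, adjusted p = 1.07e-11). Creld2 (2.80 ± 0.06), Sdf2l1 (2.68 ± 0.07) and Manf (2.06 ± 0.06), all ER-resident folding proteins, gave the same order of groups.

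Targets of the amino acid response factor ATF4 and of serine synthesis went the same way. Of 19 tested, 14 were higher and 2 lower in lymphoma, with a median of 1.13. In both clones together 16 were higher, 11 of them without overlap with the 6 others (background 16.0%). Slc7a5, an amino acid transporter subunit, had 436 and 441 CPM in lymphoma, 93.9 and 89.8 CPM in Notch-labelled (2.26 ± 0.12) and 22.7 to 31.9 CPM in other libraries. Chac1, a glutathione-degrading enzyme, had 24.1 and 19.4 CPM in lymphoma, 0.900 and 1.04 CPM in Notch-labelled (4.48 ± 0.33) and 0.123 to 0.367 CPM in other libraries, and Trib3, a pseudokinase, had 24.6 and 20.1 and 1.499 and 1.93 CPM in the 2 clones (3.70 ± 0.33). The folate enzymes Shmt2 (223 and 214 CPM in lymphoma and 241 and 231 CPM in Notch-labelled libraries, with 68.7 to 91.1 CPM in the others) and Mthfd2 (2.17 ± 0.05) were high in both.

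The promoters of the ER and ATF4 list genes were searched for 2 motifs on both strands in the 200 bases before the RefSeq start (GRCm38.p6). The ER stress element, CCAAT followed by any 9 bases and CCACG, bound by ATF6 with NF-Y, was in 8 of the 20 ER genes with a promoter in the table (40.0%) and in 37 of 27025 promoters (0.137%). The amino acid response element TGATGNAA, bound by ATF4 with C/EBP factors, was in 6 of 18 ATF4-list genes (33.3%) and in 1219 promoters (4.51%). The ER stress element was in 0 of the 18 ATF4-list genes, and the amino acid element in 1 of the 20 ER genes, Herpud1. The lists were drawn up by gene role, so these shares describe the lists and do not test why the genes differed here. One of the ATF4-list matches, Vldlr, was not tested for expression. A match is a description of these letters and not a measured binding site. The promoters of 4 genes with the first motif and 2 with the second are shown, 5′ to 3′ on the gene's strand, with the motif in capitals. They lie at chr10:86705445-86705644 (Hsp90b1, minus), chr15:88819446-88819645 (Creld2, plus), chr10:75893198-75893397 (Derl3, plus), chr2:34771890-34772089 (Hspa5, plus), chr6:7693210-7693409 (Asns, minus) and chr2:119351042-119351241 (Chac1, plus).
Hsp90b1: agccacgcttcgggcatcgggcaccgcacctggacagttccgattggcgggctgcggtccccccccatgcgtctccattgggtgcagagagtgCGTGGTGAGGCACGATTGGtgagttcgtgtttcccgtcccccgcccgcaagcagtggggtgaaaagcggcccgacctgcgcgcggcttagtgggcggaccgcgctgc
Creld2: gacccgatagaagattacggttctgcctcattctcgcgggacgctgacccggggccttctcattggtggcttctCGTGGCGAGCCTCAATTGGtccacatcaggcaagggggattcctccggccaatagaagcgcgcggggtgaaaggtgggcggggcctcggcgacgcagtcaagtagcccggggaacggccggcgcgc
Derl3: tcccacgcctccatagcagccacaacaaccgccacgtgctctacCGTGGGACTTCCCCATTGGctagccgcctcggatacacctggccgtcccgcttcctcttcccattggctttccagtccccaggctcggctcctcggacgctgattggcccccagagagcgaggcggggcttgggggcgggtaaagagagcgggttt
Hspa5: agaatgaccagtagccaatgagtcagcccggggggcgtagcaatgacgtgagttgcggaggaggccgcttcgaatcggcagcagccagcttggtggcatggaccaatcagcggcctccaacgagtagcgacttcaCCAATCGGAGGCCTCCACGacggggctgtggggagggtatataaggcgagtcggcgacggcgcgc
Asns: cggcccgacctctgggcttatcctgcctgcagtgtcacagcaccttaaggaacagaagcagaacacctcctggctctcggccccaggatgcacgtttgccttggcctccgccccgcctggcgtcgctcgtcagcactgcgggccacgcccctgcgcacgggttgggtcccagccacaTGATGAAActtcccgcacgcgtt
Chac1: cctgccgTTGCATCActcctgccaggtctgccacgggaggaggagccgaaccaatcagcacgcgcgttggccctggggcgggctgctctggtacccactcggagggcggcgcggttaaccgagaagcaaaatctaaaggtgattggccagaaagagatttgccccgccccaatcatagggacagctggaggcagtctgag

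The genes shown were higher in lymphoma than in Notch-labelled libraries, though for Hspa5 the Notch-labelled libraries lay within the others. Hspa5 (BiP) had 1652 and 1558 CPM in lymphoma and 784 and 822 CPM in Notch-labelled libraries (0.999 ± 0.15), and Hsp90b1 (GRP94) had 2199 and 2181 and 769 and 787 CPM (1.49 ± 0.09), with 477 to 878 and 410.1 to 539 CPM in the other libraries. Asns, which makes asparagine, had 81.3 and 80.9 CPM in lymphoma, 5.20 and 8.41 CPM in Notch-labelled (3.57 ± 0.30) and 0.553 to 3.09 CPM in other libraries. These 3 genes are outside the naming rule and are given for their promoters.

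**Figure D3:**
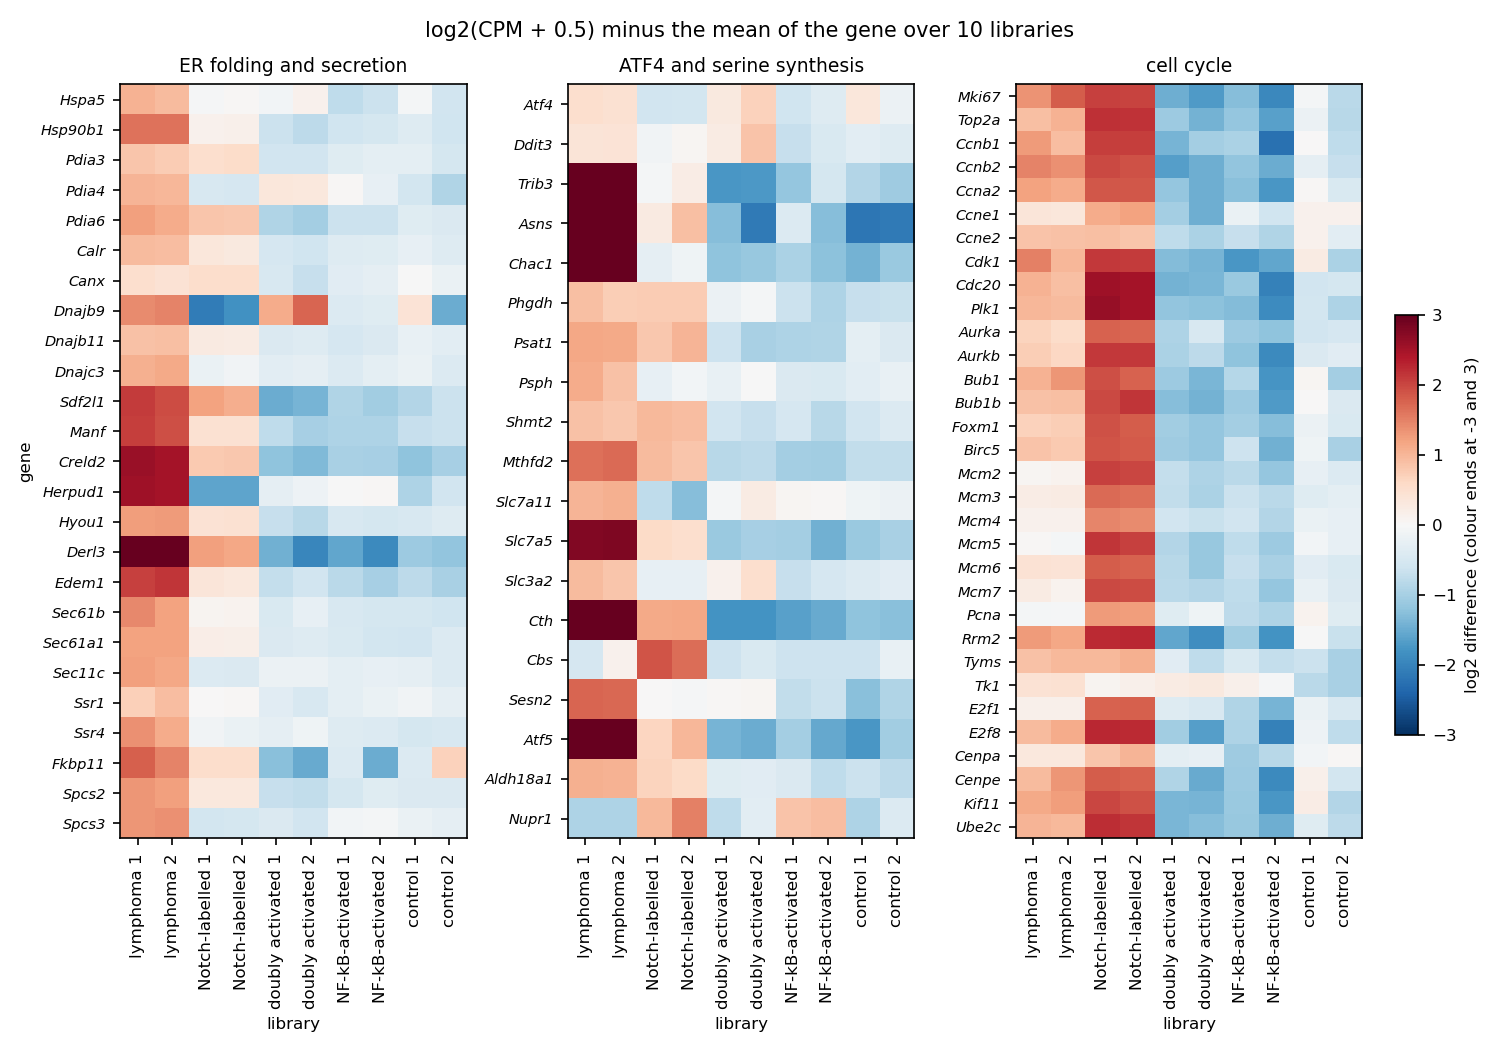
Log2(CPM + 0.5) minus each gene's mean over the 10 libraries for the ER, ATF4 and cell cycle lists, with lymphoma and Notch-labelled libraries in the left columns. The ER list is highest in lymphoma (23 of 25 tested genes higher there than in Notch-labelled cells), and the cell cycle list is highest in Notch-labelled libraries (24 of 32 lower in lymphoma).

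Proliferation genes were shared by the clones and parted in degree. All 32 cell cycle genes tested were higher in both clones together than in the other groups by edgeR, DESeq2 and limma-voom. Their median log2 fold change was 2.31 against 0.02 over all genes. In 30 of them all 4 clonal libraries lay above all 6 others (background 16.0%). Between the clones 24 were lower and 1 higher in lymphoma, with a median of -1.17. Mcm5, a subunit of the replicative helicase, had 99.7 and 92.4 CPM in lymphoma, 430.1 and 406 CPM in Notch-labelled (-2.12 ± 0.12, adjusted p = 3.25e-08) and 43.8 to 91.0 CPM in other libraries. Ccnb2 (cyclin B2) differed by less, with 45.0 and 41.3 CPM in lymphoma, 63.8 and 60.1 CPM in Notch-labelled (-0.52 ± 0.14, adjusted p = 0.00648) and 4.68 to 12.9 CPM in other libraries. That call was lost without Notch-labelled library 1 (-0.48) and without lymphoma library 2 (-0.45). Ube2c, a ubiquitin conjugase of mitotic exit, had 38.3 and 37.2 and 88.7 and 84.1 CPM in the 2 clones and 6.44 to 14.4 CPM elsewhere. Inhibitors of the cycle were split: Cdkn2a, the locus of p16 and p19Arf, had 57.8 and 54.2 CPM in lymphoma, 3.70 and 4.05 CPM in Notch-labelled (3.85 ± 0.23) and 0 to 1.57 CPM in other libraries. Cdkn1a, encoding p21, a target of p53, was high in both, at 14.9 and 12.2 CPM in lymphoma and 32.4 and 42.0 CPM in Notch-labelled libraries over 0.367 to 1.29 CPM in the others (4.92 ± 0.19), and Trp53 was lower in lymphoma (-1.16 ± 0.08). Like the stroma genes, Cdkn1a was higher in Notch-labelled library 2 than in library 1, and the part of other cells in it was not tested. Of the 20 D cyclin, inhibitor and tumour suppressor genes as a list, 9 were higher and 8 lower in lymphoma.

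Genes of growth metabolism were also mostly higher in the mean of both clones and lower in lymphoma than in Notch-labelled cells. Of 25 genes of the Myc network and ribosome biogenesis, 20 were higher and 2 lower in both clones together, and 2 were higher and 13 lower in lymphoma than in Notch-labelled cells (median -0.38). All 4 clonal libraries lay above all 6 others in 13 of the 25 (background 16.0%) and below them in 1 (background 14.7%). Srm, spermidine synthase, had 76.0 and 65.7 CPM in lymphoma, 128 and 122 CPM in Notch-labelled (-0.82 ± 0.10) and 25.4 to 36.9 CPM in other libraries, and Mycn had 3 counts in lymphoma and 244 in Notch-labelled libraries. That is 85.1-fold more in Notch-labelled cells (exact 95% interval 28.8 to 415), for a gene outside the naming rule that was chosen after its values were seen. Of 20 glycolysis and hypoxia genes, 11 were higher and 6 lower in both clones together, and 6 were higher and 11 lower in lymphoma. All 4 clonal libraries lay above all 6 others in 8 of the 20 (background 16.0%) and below them in 3 (background 14.7%). Pkm, the last enzyme of glycolysis, had 919 and 806 CPM in lymphoma, 1737 and 1704 CPM in Notch-labelled (-0.996 ± 0.10) and 418 to 498 CPM in other libraries.

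The 8 largest rises shared by the 2 clones against the other 6 libraries included 1 gene of the Notch pathway, Notch3. Efcab3, which encodes a protein with calcium-binding EF hands, had 28.4 and 24.8 CPM in lymphoma and 12.3 and 12.1 CPM in Notch-labelled libraries and no count in the other 6, at least 692-fold higher in the clones. Notch3, a receptor of the pathway, had 6.94 and 5.62 CPM in lymphoma and 14.5 and 13.3 CPM in Notch-labelled libraries, and 2 counts in the other 6 together, a ratio of 532 (exact 95% interval 147 to 4401). Evc2, of the ciliary base, was 238-fold (81.0 to 1157) higher in the clones, at 6.80 and 5.08 CPM in lymphoma and 6.75 and 8.31 CPM in Notch-labelled libraries. Fbn2 (a fibrillin), Cyp4f39 (a cytochrome P450) and Erich3 were also among the 8 largest shared rises, with log2 fold changes of 8.83 ± 0.28, 8.02 ± 0.40 and 7.52 ± 0.49. Wwtr1 (the transcriptional coactivator TAZ) and Pdgfrb (a receptor of mesenchymal cells) completed them at ratios of 755 (135 to 29872) and 308 (105 to 1499), but most of their counts were Notch-labelled, with 2.17 and 2.05 CPM of Pdgfrb in lymphoma and 13.8 and 17.4 CPM in Notch-labelled libraries.

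The Notch pathway list as a whole was divided. Of 25 members tested, 11 were higher and 8 lower in both clones together, and 4 were higher and 11 lower in lymphoma than in Notch-labelled cells (2 higher without Notch-labelled library 2 or lymphoma library 2 and by DESeq2 or its size factors, and 2 higher and 16 lower by library size alone). Among receptors, Notch1 had 25.9 and 29.0 CPM in lymphoma, 212 and 217 CPM in Notch-labelled (-2.96 ± 0.11, adjusted p = 9.54e-10) and 46.7 to 62.5 CPM in other libraries, so the clones fell on opposite sides. With an offset for effective transcript length the difference in Notch1 was -1.41 and not called. Notch2, which sums the endogenous gene and any reads of the Rosa allele, had 155 and 178 CPM in lymphoma, 284 and 278 CPM in Notch-labelled (-0.76 ± 0.08) and 652 to 795 CPM in other libraries, lower in both. Jag1, a ligand, had 16.3 and 22.2 CPM in lymphoma and 28.1 and 26.1 CPM in Notch-labelled libraries over 0 to 0.947 CPM in the others (6.16 ± 0.23, adjusted p = 2.74e-10). Among targets, Heyl had 38.9 and 44.0 CPM in lymphoma and 50.9 and 44.1 CPM in Notch-labelled libraries, a difference of -0.20 ± 0.13 that was not called (adjusted p = 0.209), with 23.3 and 25.6 CPM in doubly activated, 2.94 and 2.15 CPM in NF-kB-activated and 0.430 and 0.381 CPM in control libraries. Dtx1 was not called either (-0.11 ± 0.12, adjusted p = 0.451). By library size alone both were called, at -0.37 for Heyl (adjusted p = 0.0258) and -0.29 for Dtx1 (adjusted p = 0.0454). Nrarp, a feedback inhibitor and direct target, had 1.43 and 1.08 CPM in lymphoma, 17.4 and 18.9 CPM in Notch-labelled (-3.84 ± 0.31) and 1.67 to 7.89 CPM in other libraries. Il2ra, the interleukin 2 receptor alpha chain, also had less in lymphoma, at 6.99 and 6.30 CPM against 47.1 and 70.1 CPM in Notch-labelled libraries (-3.14 ± 0.22). Like the stroma genes, Il2ra was higher in Notch-labelled library 2 than in library 1, and the part of other cells in it was not tested.

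**Figure D4:**
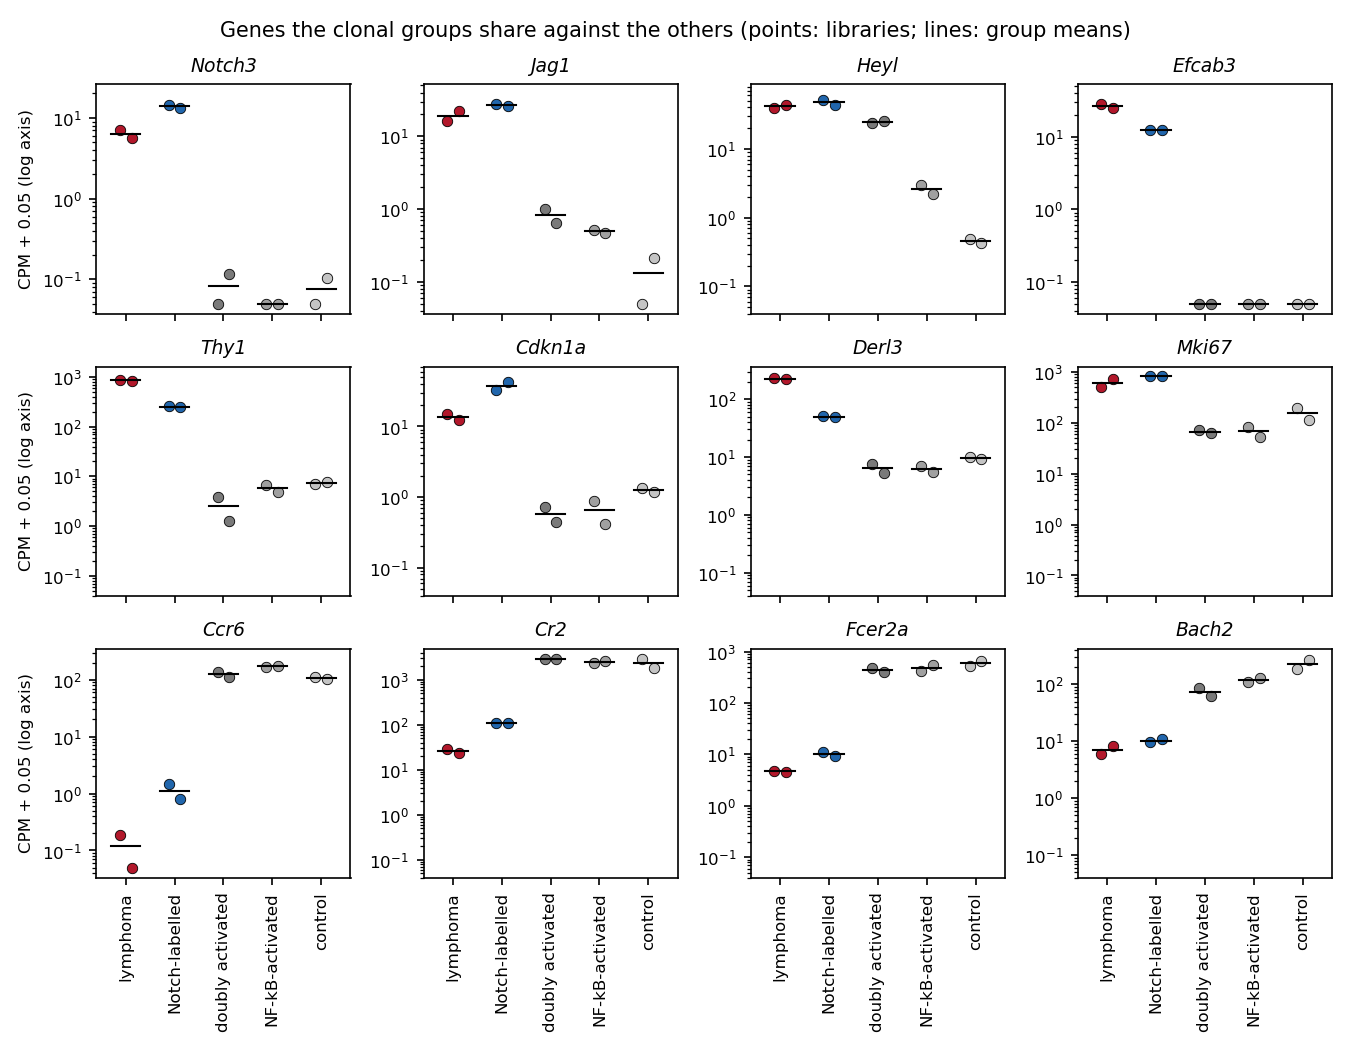
CPM + 0.05 on a log axis for 12 genes in each library, 1 point a library and a line at each group's mean, with lymphoma and Notch-labelled at the left and control at the right. Notch3, Jag1, Heyl, Efcab3, Thy1, Cdkn1a, Derl3 and Mki67 are higher in both clonal groups than in the other 6 libraries, and Ccr6, Cr2, Fcer2a and Bach2 are lower in both.

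B cell genes were lower in both clones, and further reduced in the Notch-labelled cells for many of them. Of 25 B cell identity genes, 20 were lower and 3 higher in both clones together than in the other groups, and 18 had all 4 clonal libraries below all 6 others (background 14.7%); between the clones 14 were higher and 6 lower in lymphoma. Ms4a1, a defining marker that encodes CD20, was still there, with 1226 and 1226 CPM in lymphoma, 420.4 and 405 CPM in Notch-labelled and 1350.2 to 1696 CPM in other libraries. Ebf1, a transcription factor that sets the B lineage, had 224 and 243 CPM in lymphoma and 45.0 and 46.9 CPM in Notch-labelled libraries (2.34 ± 0.09, adjusted p = 1.35e-09) with 256 to 358 CPM elsewhere. Pax5, its partner and a fixed marker, went the other way, with 82.0 and 129 CPM in lymphoma and 409.9 and 378 CPM in Notch-labelled libraries (-1.90 ± 0.18, adjusted p = 1.7e-05) and 207 to 256 CPM in the others, which lay between the clones. Of 24 genes of B cell receptor signalling, 21 were lower and 1 higher in both clones together, and 13 were higher and 7 lower in lymphoma. Rasgrp3, which couples the receptor to Ras, had 624 and 688 CPM in lymphoma, 33.1 and 33.0 CPM in Notch-labelled (4.31 ± 0.13) and 219 to 392 CPM in other libraries, on opposite sides of them.

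The label of marginal zone cells was only partly borne by its markers. Cr2, the complement receptor CD21 that is high on marginal zone B cells, had 28.5 and 23.3 CPM in lymphoma, 111 and 109.9 CPM in Notch-labelled and 1874 to 2940.3 CPM in other libraries, a shared fall of -5.60 ± 0.15 (adjusted p = 1.06e-09). Cd1d1 had 172 and 166 CPM in lymphoma, 237 and 236 CPM in Notch-labelled and 95.02 to 219 CPM in other libraries, and Cd9, a tetraspanin, 256 and 232, 144 and 138 and 25.0 to 105 CPM. S1pr1, which holds cells in the marginal zone, was at 127 and 124 CPM in lymphoma, 349 and 321 CPM in Notch-labelled (-1.42 ± 0.09) and 194 to 419 CPM in other libraries. Of the 20 marginal zone genes tested, 7 were higher and 8 lower in both clones together, and 9 were higher and 8 lower in lymphoma; Lrrk2, a kinase abundant in the other 6 libraries (462 to 971 CPM), had 18.8 and 23.7 CPM in lymphoma and 10.1 and 12.7 CPM in Notch-labelled libraries. Of 15 follicular genes tested, 13 were lower and 1 higher in both clones together, with a median of -2.20; 7 were higher and 4 lower in lymphoma. Fcer2a, encoding CD23, had 4.72 and 4.54 CPM in lymphoma, 10.8 and 9.39 CPM in Notch-labelled and 391 to 669 CPM in other libraries (-6.19 ± 0.14).

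The largest shared falls were of genes with varied roles. Ccr6, a chemokine receptor of mature B cells, had 0.139 and 0 CPM in lymphoma and 1.40 and 0.742 CPM in Notch-labelled libraries against 104 to 176 CPM in the others (-8.83 ± 0.18, adjusted p = 2.09e-11). Nhs had 2 counts in the 4 clonal libraries together and 1.41 to 24.9 CPM in the others, 567-fold more there (exact 95% interval 157 to 4686). Zfp608, a zinc finger gene, was at 0.0463 and 0.0977 CPM in lymphoma, 11.2 and 11.7 CPM in Notch-labelled and 69.3 to 91.1 CPM in other libraries, so that both clones were below the rest while Notch-labelled cells held 160-fold more than lymphoma (54.5 to 781). Ell3, a transcription elongation factor of B cells, had a shared log2 fold change of -6.22 ± 0.11. Slc16a7, a monocarboxylate transporter, and Cnr1, a cannabinoid receptor that ranged over 0.218 to 192 CPM in the 6 other libraries, were at most 0.4998 and 0.150 CPM in a clonal library. Against control alone the fall of Cnr1 was -0.92 and not called (adjusted p = 0.337). Rps15a-ps7 is again a pseudogene with uncertain counts. Of 22 genes of chemokine receptors and homing, 13 were lower and 5 higher in both clones together, and 10 were higher and 7 lower in lymphoma. Ccr1 had 52.5 and 47.7 CPM in lymphoma and 0.850 and 0.890 CPM in Notch-labelled libraries (5.84 ± 0.33), and Ccr10, a receptor of IgA plasma cells, 11.0 and 10.5 and 0.350 and 0.148 CPM (5.39 ± 0.51).

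NF-kB genes were mostly higher in lymphoma than in Notch-labelled cells, and the mean of the 2 clones was mostly lower than the other groups. Of 30 subunits, inhibitors and targets, 19 were higher and 3 lower in lymphoma (6 lower by library size alone), with a median log2 fold change of 0.84, while 4 were higher and 21 lower in both clones together than in the other groups. All 4 clonal libraries lay below all 6 others in 7 of the 30 (background 14.7%) and above them in 0 (background 16.0%). Among the other groups, doubly activated and NF-kB-activated cells carry the NIK allele. Map3k14 itself had 153 and 153 CPM in lymphoma, 36.5 and 33.4 CPM in Notch-labelled (2.13 ± 0.11, adjusted p = 1.13e-08), 244 and 255 CPM in doubly activated, 219.9 and 217 CPM in NF-kB-activated and 103 and 129.6 CPM in control libraries. The lymphoma, which carries the NIK allele, was below doubly activated cells (log2 fold change -0.71 ± 0.10, adjusted p = 7.32e-05), and the Notch-labelled cells, which do not, were below control (-1.74 ± 0.10, adjusted p = 3.65e-08). Counts of the NIK allele and of the endogenous gene are summed in Map3k14. Traf1, an adaptor and target, had 101 and 93.3 CPM in lymphoma, 43.4 and 43.8 CPM in Notch-labelled (1.16 ± 0.08) and 68.4 to 307 CPM in other libraries. Birc3, a ubiquitin ligase that degrades NIK, had 277 and 266 CPM in lymphoma, 101 and 102 CPM in Notch-labelled (1.42 ± 0.07) and 239.6 to 362 CPM in other libraries. In both Traf1 and Birc3 lymphoma lay within the other libraries and the Notch-labelled libraries below them. Against control alone the difference of both clones together in Traf1 was -0.14 and not called (adjusted p = 0.122). Ebi3, a cytokine subunit, was among the few higher in both clones together (0.84 ± 0.08), but without all 4 clonal libraries above all 6 others.

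Antigen presentation parted by class. Of 14 MHC class II genes, 13 were higher and 1 lower in lymphoma, with a median of 1.27, and 12 were lower and 1 higher in both clones together. H2-Aa, a class II chain, had 2587 and 2334 CPM in lymphoma, 519 and 477 CPM in Notch-labelled (2.31 ± 0.10, adjusted p = 2.86e-09) and 2130.4 to 2979.8 CPM in other libraries, so that lymphoma lay within the others and the Notch-labelled cells below. H2-Ob, a chain of the peptide loading inhibitor, was low in both, with 419 and 388 CPM in lymphoma, 138 and 128 CPM in Notch-labelled and 861 to 1084 CPM in other libraries. Of 14 class I genes, 13 were higher in both clones together, and 11 were higher and 2 lower in lymphoma. All 4 clonal libraries lay above all 6 others in 6 of the 14 (background 16.0%). Class I genes summed to 19931 and 18336 CPM in lymphoma and 13124 and 12564 CPM in Notch-labelled libraries. The other libraries held 9445 to 13296 CPM, so the Notch-labelled sums lay within them. Nlrc5, the class I transactivator, had 1042 and 1146 CPM in lymphoma, 768 and 726 CPM in Notch-labelled (0.55 ± 0.08) and 208 to 418 CPM in other libraries.

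Interferon response genes were lower in lymphoma than in Notch-labelled cells in 17 of 25 and higher in 3 (1 without Notch-labelled library 2), with a median of -1.07, and 9 were higher and 13 lower in both clones together. Isg15, a ubiquitin-like protein, had 7.03 and 5.13 CPM in lymphoma, 40.4 and 39.4 CPM in Notch-labelled (-2.71 ± 0.19) and 5.24 to 12.8 CPM in other libraries. Gbp2, a guanylate-binding protein, was high in both, at 138 and 135 CPM in lymphoma and 291 and 282 CPM in Notch-labelled libraries over 23.9 to 61.2 CPM in the others, and Oasl1 was low in both, at 1.80 and 1.37 CPM in lymphoma and 4.85 and 2.92 CPM in Notch-labelled libraries, with 20.4 to 33.5 CPM in the others. Genes of the Bcl2 family were higher in lymphoma in 9 of 17 and lower in 3, among them Bcl2 (0.93 ± 0.08) and Mcl1 (0.98 ± 0.08), both of which prevent cell death; in both clones together 6 were higher and 8 lower, with the p53 target Bbc3 higher (1.97 ± 0.16).

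Germinal centre genes gave 3 higher and 8 lower of 20 in lymphoma and 7 higher and 7 lower in both clones together. Neil1, a DNA glycosylase of base excision repair, had 545 and 514 CPM in lymphoma, 17.0 and 15.9 CPM in Notch-labelled (5.01 ± 0.16, adjusted p = 1.09e-09) and 29.1 to 51.7 CPM in other libraries. Plxnb2, a semaphorin receptor, was raised in both and most in the Notch-labelled cells, with 98.1 and 98.9 CPM in lymphoma, 526 and 519.9 CPM in Notch-labelled and 24.3 to 35.0 CPM in other libraries. Genes of B-1 and age-associated B cells were higher in both clones together in 12 of 20 and lower in 5, and 7 were higher and 8 lower in lymphoma. Bhlhe41, a transcription factor of B-1 cells, had 302 and 297 CPM in lymphoma, 136 and 122 CPM in Notch-labelled and 24.0 to 63.4 CPM in other libraries (2.25 ± 0.09), and Cd300lf, an inhibitory receptor, 368 and 384, 189 and 177 and 12.9 to 62.2 CPM (2.94 ± 0.08). Of 21 checkpoint and cytokine genes, 10 were higher and 9 lower in lymphoma, and 7 were higher and 8 lower in both clones together. Il10, a suppressive cytokine, had 30.0 and 29.4 CPM in lymphoma, 16.3 and 15.5 CPM in Notch-labelled and 0.184 to 6.28 CPM in other libraries (4.72 ± 0.20), and Havcr1, encoding TIM-1, 26.4 and 23.2, 0.04998 and 0.198 and 0.196 to 5.40 CPM. Of 20 immediate early and stress genes, 5 were higher and 5 lower in lymphoma, and 3 were higher and 12 lower in both clones together. Those higher in lymphoma were 3 without Notch-labelled library 1 and 8 without either control library, those lower in lymphoma 3 without Notch-labelled or lymphoma library 2, and those lower in both together 7 without Notch-labelled library 1. Fosl2 (2.77 ± 0.23), a subunit of AP-1, was one of the 3 higher in both clones together.

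Counts of T and NK cell genes were found in the libraries of both clones, some of them raised in both and others in 1. Of 23 T and NK cell genes tested, 2 were higher and 16 lower in lymphoma than in Notch-labelled cells, with a median of -1.84; the summed level was 1217 and 1138 CPM in lymphoma, 617 and 651 CPM in Notch-labelled and 194 to 297 CPM in other libraries. Thy1, a surface protein of T cells, carried most of the lymphoma sum, with 879 and 830.2 CPM in lymphoma, 257 and 248 CPM in Notch-labelled and 1.24 to 7.83 CPM in other libraries (6.59 ± 0.18, adjusted p = 2.33e-08). Cd8b1, a CD8 chain, had 181 and 162 CPM in lymphoma, 35.2 and 31.5 CPM in Notch-labelled and 1.31 to 3.63 CPM in other libraries (5.001 ± 0.10). The T cell receptor constant genes were near the floor in lymphoma, with 0.370 and 0.293 CPM of Trbc1 and 1.06 and 1.37 CPM of Trbc2, and higher in the Notch-labelled libraries, with 21.1 and 31.5 and 34.4 and 38.6 CPM (-6.28 ± 0.41 and -4.90 ± 0.23). So Thy1 and Cd8b1 were high in lymphoma where Trbc1 and Trbc2 were lower than in each of the other 8 libraries. Whether the Trbc counts of the Notch-labelled libraries come from T cells or from the clone was not tested.

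Of 23 myeloid genes, 2 were higher and 12 lower in lymphoma, and 5 were higher and 5 lower in both clones together. Leaving out lymphoma library 2 gave 7 genes lower in lymphoma. Those lower in both together were 1 without any 1 clonal library or doubly activated library 1, 2 and 3 without NF-kB-activated library 1 and 2, and 2 by limma-voom. Cebpd, a myeloid transcription factor, had 1.67 and 2.49 CPM in lymphoma, 13.0 and 15.2 CPM in Notch-labelled (-2.76 ± 0.41) and 0.278 to 1.73 CPM in other libraries, and Cd68, a lysosomal protein of macrophages, was higher in lymphoma, with 60.0 and 61.1 and 15.2 and 14.0 CPM (2.05 ± 0.26). The neutrophil list gave 1 higher and 6 lower of 18 in lymphoma, with sums of 25.4 and 26.6 CPM in lymphoma, 100.9 and 97.5 CPM in Notch-labelled and 10.9 to 560.4 CPM in other libraries, and 1 higher (3 by DESeq2 or without NF-kB-activated library 1, and 4 without control library 2) and 1 lower in both clones together. Without lymphoma library 1, lymphoma library 2 or Notch-labelled library 1 the neutrophil genes lower in lymphoma were 3, 2 and 3. Mpo, a granule enzyme of neutrophil precursors, had 0.278 and 0.489 CPM in lymphoma and 8.55 and 11.4 CPM in Notch-labelled libraries (-4.68 ± 0.88, not called by limma-voom). Dendritic cell genes gave 2 higher and 2 lower of 11, and Itgax, the integrin CD11c, had 88.2 and 93.0 CPM in lymphoma, 11.2 and 9.25 CPM in Notch-labelled (3.14 ± 0.49) and 3.14 to 11.1 CPM in other libraries. Of 8 erythroid and platelet genes tested, 0 were called between the clones by edgeR (0 at an unadjusted p under 0.05), 0 by DESeq2 and 1 by limma-voom, and 5 were higher in both clones together (2 without Notch-labelled library 1 or lymphoma library 1, and 8 by limma-voom). The part of other cells in these differences was not tested.

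**Figure D5:**
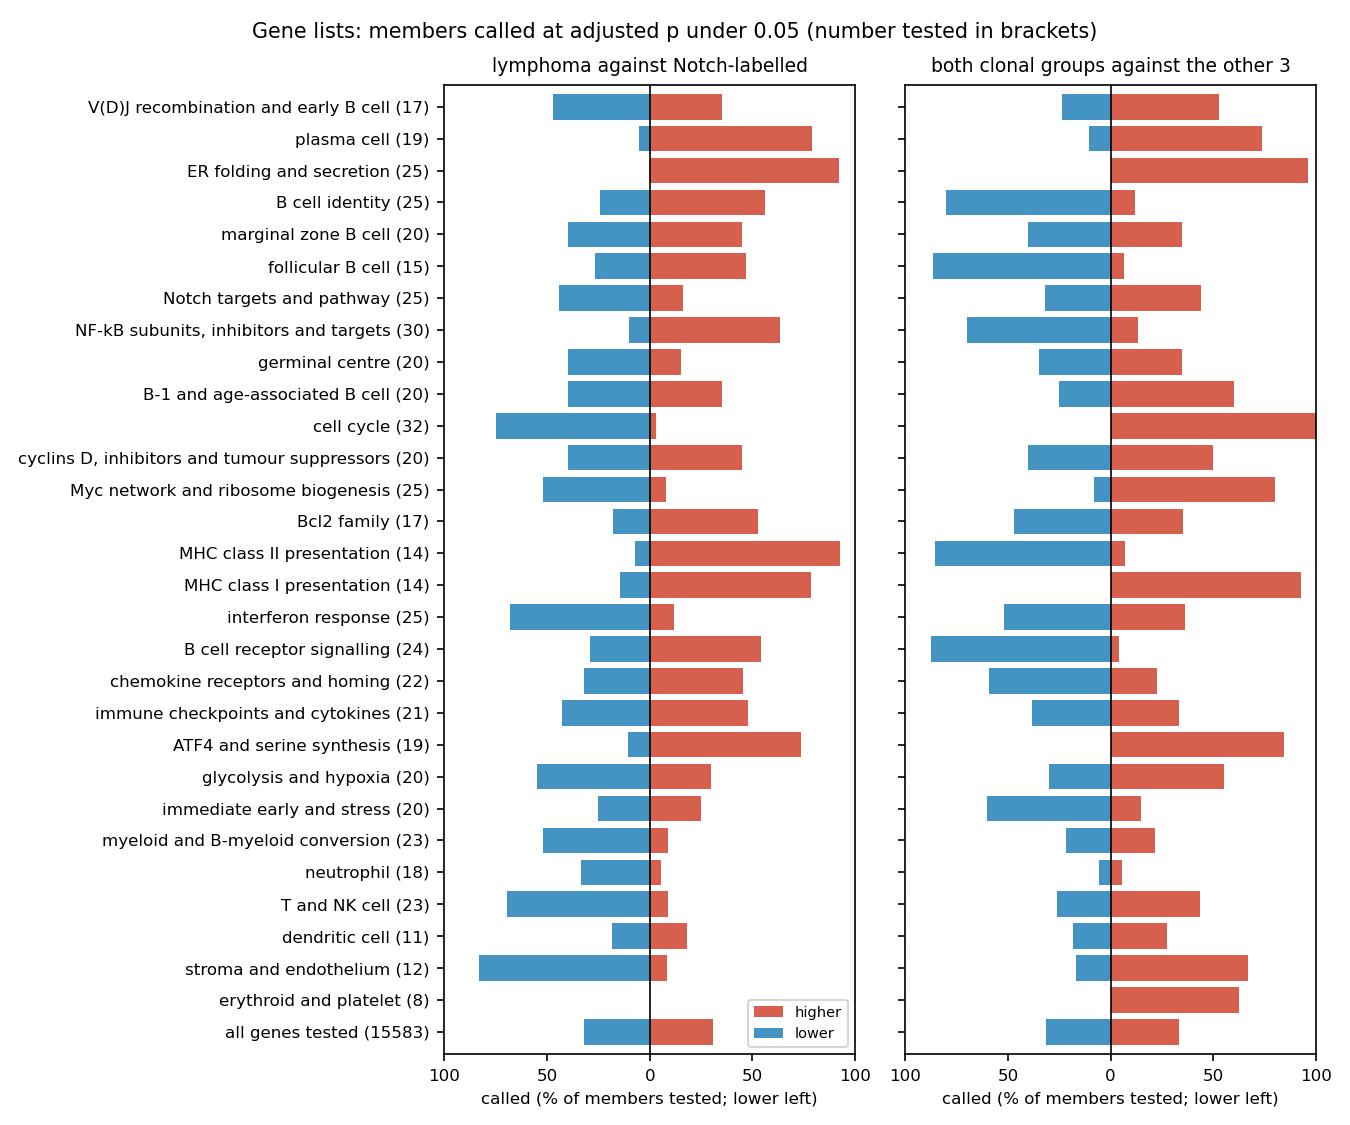
Percent of the tested members of each gene list called in each direction, for lymphoma against Notch-labelled cells and for both clonal groups against the other 3, with the shares over all 15583 genes in the bottom row (31.0% and 32.2%, and 33.5% and 31.5%). ER genes (23 of 25 higher in lymphoma), class II genes (13 of 14 higher) and cell cycle genes (32 of 32 higher in both clones) lie far from that row.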

How the data were processed

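The authors deposited 1 table per library with kallisto's estimated counts of each of 88198 transcripts, not normalized, and the TPM of each transcript, computed by the authors from those counts and effective lengths, per the file headers. Tool and build are kallisto 0.44.0 and mm10 per the submitters' processing notes, which give no transcript release.

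Identifiers of 86031 transcripts matched GENCODE M21 (GRCm38), and their estimated counts were added up to whole numbers per gene. The 2167 unmatched transcripts (1.09% to 1.38% of counts) stayed out of the gene tests. TPM served for effective lengths and for alternative shares. The test was edgeR 4.0.16 in R 4.3.3, with filterByExpr by group (minimum count 10, total 15), TMM scaling and 1 robust quasi-likelihood model of the 5 groups and all 10 libraries, leaving 5 residual degrees of freedom. Tests were two-sided. The 2 comparisons are lymphoma against Notch-labelled, and the mean of both against the mean of the other 3 groups. SE is the log2 fold change over the root of F. DESeq2 1.42.0 and limma-voom (limma 3.58.1) were alternatives. The fit was tested on simulated data. Intervals of shares (95% Wilson) and folds (exact), and the floor of 3 counts over a group, cover counting error only.

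The populations, the 29 gene lists and the tests were chosen with earlier results of these data known. Named genes are the 10 largest rises and falls between the clones and the 8 largest shared rises and falls (adjusted p under 0.05, at least 5 CPM in the higher group, groups not overlapping, predicted, receptor segment and sex-linked genes left out), the up to 4 called members of each list with the smallest p, and fixed markers. Rag1, Mycn, Mki67, Bach2, Hspa5, Hsp90b1 and Asns fall outside that rule and were chosen after their values were seen. V exons and promoters come from GENCODE coordinates and RefSeq tables. Some genes are not reported here.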

Additional observations from a re-analysis of the deposited data

Results flagged for a closer look

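A transcript outside the gene table, ENSMUST00000160554, had estimated counts of 8472 in lymphoma library 1 and 3916 in lymphoma library 2 and 0 in the other 8 libraries. It is among the 2167 identifiers without a match in the annotation used here, so no gene name is given. It held 3.88% and 2.06% of the TPM of the 2 lymphoma libraries. By estimated counts, 23102081 and 21425408 in all, it was a far smaller share than by TPM, which scales by effective length. It drew attention because it carries signal in data that no comparison above uses, in lymphoma alone.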

How the results depend on the processing

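The counts of called genes held within 1.5 times under the other normalizations, filters and tools. They moved with a minimum fold change of 1.5, to 5572 (2581 higher, 2991 lower) between the clones and 4774 (2704 higher, 2070 lower) for both clones against the others. Asking that all 4 clonal libraries also lie beyond all 6 others left 4752 (2479 higher, 2273 lower). Leaving out 1 library at a time gave 8020 to 10426 and 9138 to 10252 called genes. The replicate numbers did not pair the libraries (r of deviations -0.118 to 0.107 over 10376 genes); a replicate block gave 9516 and 9874 called genes, and in the 4 clonal libraries alone 10172 with and 10349 without it. The top heavy chain share by TPM was 91.6% in lymphoma and 90.9% in Notch-labelled libraries, and by family 94.7% and 97.2%; the lymphoma kappa share by family was 92.3%. For the 123 genes named, 2624 of 2693 values under alternatives kept a call and its direction, or stayed uncalled, between the clones. Against the others these were 2622 of 2701. A further 46 and 37 lost the call, 23 and 42 gained one, and none reversed a called direction under the alternatives run. Gained calls could lie in either direction, as for Dtx1 in both clones, at 0.45 against control alone and -0.63 against doubly activated alone. By library size alone the medians of the B-1 and dendritic cell lists (between the clones) and of the checkpoint list (both clones) changed sign, the B-1 median also by limma-voom and the checkpoint median also by DESeq2 and its size factors. Genes with few counts in a group, such as Rag1, Mycn and Dmrt2, are limited by depth.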
